A study of Mus musculus with 4 samples.

Results

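The cytosolic sensors of double-stranded RNA and of DNA are described here in mouse embryonic stem cells (mESCs) through 10 named genes out of the 37310 in the count table. They were taken from a list of names and are the RNA helicase sensors *Ddx58*, *Ifih1* and *Dhx58*, the ligase *Trim25*, the adaptors *Mavs* and *Tmem173*, the effectors *Eif2ak2* and *Oas1a*, the editing enzyme *Adar* and the Z-form nucleic acid sensor *Zbp1*. *Ddx58* and *Tmem173* are older names for the genes of RIG-I and STING. RNA was sequenced from 2 libraries of the wild-type (WT) HATX line and 2 libraries whose labels name clone 2 of its *Spen* knockout (KO) derivative. Both lines hold an X-linked *Xist* transgene that doxycycline switches on, the labels give no treatment, and the study describes the cells as haploid, which was not measured here. *Spen* encodes a nuclear RNA-binding repressor that *Xist* needs for X inactivation, and the KO line is described as lacking most of the gene. Each group is 1 cell line and the KO-labelled group is 1 clone, so loss of *Spen* and any other difference between the lines cannot be told apart. The comparison asks how the RNA of these sensors differs between the groups.

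In the cytosol, RIG-I and MDA5 are helicases that bind double-stranded RNA and then assemble the adaptor MAVS on mitochondria, from where kinases switch on the interferon genes. Cytosolic DNA acts through the enzyme cGAS and the adaptor STING. Other sensors act without that relay: PKR stops translation, oligoadenylate synthetases make a messenger on binding double-stranded RNA, and ZBP1 can start necroptosis. ADAR1 edits double-stranded RNA so that a cell's own transcripts are not sensed. Many of these genes are induced by interferon, and embryonic stem cells are known for a weak interferon response.

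Total counts per library ranged from 36667685 to 61908422, with the KO-labelled libraries the deeper pair, and between 21850 and 22591 genes had a count. Values below are normalized counts, that is, raw counts divided by the size factor of the library. *Spen* itself stood at 3716 and 3047 in WT replicates 1 and 2 and at 7797 and 6242 in KO-labelled replicates 1 and 2. Its gene-level count was higher in the libraries labelled KO (log2 fold change 1.05 ± 0.21 SE, DESeq2 adjusted p = 7.7e-06), and such a count does not show which part of the gene the reads come from. The label was kept as given, and the group is called KO-labelled throughout. The summed level of 6 pluripotency genes lay between 129573 and 138663 in all libraries. The summed level of 7 fibroblast markers was 172 and 192 in WT and 421 and 485 in KO-labelled libraries, mostly *Thy1*, with *Col1a1* at 27.8 and 21.8 against 49.6 and 47.7, *Col1a2* at 13.3 and 13.1 against 5.22 and 6.26, and *Postn* and *Lum* at or near 0. That of 7 leukocyte markers was 459 and 463 against 738 and 659, where *Cd68* and *Itgam* were higher, *Cd3e* did not pass (109 and 102 against 77.5 and 63.4) and *Ptprc* and *Lyz2* were at or near 0. That of 6 primitive endoderm markers was 530 and 566 against 285 and 246, where *Gata4* and *Sox7* were lower. The part of these cell types in the results on the sensors was not tested.

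The sensor and adaptor RNAs were mostly higher in KO-labelled mESCs. Of the 9 genes with enough counts for an adjusted p, 6 were higher at an adjusted p under 0.05 (DESeq2, Benjamini-Hochberg), namely *Zbp1*, *Ddx58*, *Oas1a*, *Trim25*, *Adar* and *Mavs*. None was lower, with DESeq2 or with edgeR. An unadjusted p under 0.05 was reached by 7 genes, all with positive fold changes. The share of all genes at that unadjusted threshold was not counted. *Dhx58*, *Tmem173* and *Eif2ak2* did not pass at the adjusted p. Across the 17710 genes tested in the same fit, 16.4% were higher and 15.8% lower. The log2 fold changes of the 6 genes ran from 0.31 to 1.60, and the median over the 9 genes was 0.33 beside 0.00 over all genes tested. In 7 of the 9 genes both KO-labelled libraries lay above both WT libraries, which held for 35.4% of all genes tested. At the stricter thresholds the study states (2-fold, with an adjusted p under 0.001), *Zbp1* alone was called, and 1.36% of all genes tested were called higher. Of the 6 genes, *Zbp1*, *Ddx58*, *Trim25* and *Adar* kept an adjusted p under 0.05 whichever 1 of the 4 libraries was left out, whereas *Mavs* and *Oas1a* never did, so the count was then 4. In such bulk RNA, more cells expressing a gene and more RNA per cell cannot be told apart.

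The first transcribed bases and the sequence before them are shown for the 4 sensor and effector genes whose window held an interferon-stimulated response element, the site bound by interferon-activated transcription factors. Promoter windows of 300 bases (250 before and 50 after the start) came from RefSeq on build GRCm38.p6 and were found for 7 of the 10 genes. The element was searched as GAAA, any 2 bases, then GAAA, on either strand. It was present in 4 of these 7 genes (57.1%), against 1079 of 27025 genes (3.99%) and 1131 of 32851 windows (3.44%) in the whole table. *Mavs*, *Trim25* and the 3 windows of *Adar* held no match to these letters. No window was found for *Dhx58*, *Zbp1* and *Tmem173*, so these genes were not searched. Windows are printed 5′ to 3′ on the strand of the gene, with matches in capitals. All 4 genes lie on the minus strand, at chr4:40239776-40240075 (*Ddx58*), chr2:62646206-62646505 (*Ifih1*), chr17:78882523-78882822 (*Eif2ak2*) and chr5:120907476-120907775 (*Oas1a*).
Ddx58: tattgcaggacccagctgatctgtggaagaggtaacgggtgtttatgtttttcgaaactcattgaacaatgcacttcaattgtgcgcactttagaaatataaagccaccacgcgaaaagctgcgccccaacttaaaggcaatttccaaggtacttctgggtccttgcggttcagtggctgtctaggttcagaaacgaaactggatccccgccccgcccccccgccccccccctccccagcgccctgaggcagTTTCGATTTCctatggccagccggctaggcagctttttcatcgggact
Ifih1: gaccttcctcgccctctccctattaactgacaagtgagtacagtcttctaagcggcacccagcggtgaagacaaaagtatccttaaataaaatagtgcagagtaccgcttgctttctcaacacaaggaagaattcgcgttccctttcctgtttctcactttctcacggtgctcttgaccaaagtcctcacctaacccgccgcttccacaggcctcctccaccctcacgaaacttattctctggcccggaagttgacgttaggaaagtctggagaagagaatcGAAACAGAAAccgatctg
Eif2ak2: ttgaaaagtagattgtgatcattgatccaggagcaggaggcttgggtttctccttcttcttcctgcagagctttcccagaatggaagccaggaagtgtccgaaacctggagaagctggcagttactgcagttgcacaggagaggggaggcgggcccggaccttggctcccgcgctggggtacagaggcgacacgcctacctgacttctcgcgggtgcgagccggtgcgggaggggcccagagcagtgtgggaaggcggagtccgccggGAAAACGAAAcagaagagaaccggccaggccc
Oas1a: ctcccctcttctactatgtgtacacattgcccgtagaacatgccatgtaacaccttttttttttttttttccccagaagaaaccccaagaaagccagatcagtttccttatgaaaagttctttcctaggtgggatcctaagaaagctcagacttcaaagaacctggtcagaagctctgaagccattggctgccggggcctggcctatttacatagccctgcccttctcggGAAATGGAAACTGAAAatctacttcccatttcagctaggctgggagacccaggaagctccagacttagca
Counting the first transcribed base as 1, the match lay at bases 3 to 12 in *Ddx58*, on the opposite strand, at 33 to 42 in *Ifih1* and at 19 to 28 in *Eif2ak2*. *Oas1a* held a pair of overlapping matches before its start, at -20 to -11 and -14 to -5. Of these 4 genes, *Ddx58* and *Oas1a* were higher in KO-labelled mESCs, *Eif2ak2* missed the threshold and *Ifih1* was too low to test. The genes whose windows held no match, *Mavs*, *Trim25* and *Adar*, were all higher as well. A relation between the element and the change was not tested. A match of letters is a description and does not show that a factor binds there.

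*Ddx58* (ENSMUSG00000040296.8, mm9 chromosome 4, 40150806 to 40186861, minus strand) encodes RIG-I, which binds double-stranded RNA with an uncapped end. Its normalized counts were 3358 and 3443 in WT and 5008 and 5603 in KO-labelled libraries. The KO-labelled libraries were both above the WT libraries, and the gap was wider than the spread within either group. The mean rose from 3401 ± 60.2 (SD, n = 2) to 5306 ± 420 (n = 2), with a log2 fold change of 0.64 ± 0.09 (SE), a 95% interval of 0.47 to 0.81 and an adjusted p of 2.17e-12. Genes on chromosome 4 had a median log2 fold change of -0.21, and with chromosome medians removed the value for *Ddx58* was 0.85.

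*Ifih1* (ENSMUSG00000026896.7, chromosome 2, 62433850 to 62484312, minus strand) encodes MDA5, which binds long double-stranded RNA. It had 0 and 4 raw counts in WT and 2 and 2 in KO-labelled libraries. These are at or near the 3 counts that a count of 0 allows, so no fold is given and a difference was not detectable at this depth. *Dhx58* (ENSMUSG00000017830.8, chromosome 11, 100556018 to 100565585, minus strand) encodes LGP2, a helicase of the same family that lacks the signalling domains and modulates the other sensors. Its normalized counts were 72.9 and 61.0 in WT and 54.0 and 75.9 in KO-labelled libraries, so the groups overlapped. The log2 fold change was -0.04 ± 0.43 (adjusted p = 0.963), with an interval of -0.87 to 0.80 that spans 0.55-fold to 1.74-fold and holds the value of *Ddx58*. A difference in response between *Ddx58* and the other 2 helicases was not tested.

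The ligase and the mitochondrial adaptor of the RIG-I relay were both higher. *Trim25* (ENSMUSG00000000275.9, chromosome 11, 88860690 to 88881607, plus strand) encodes a ubiquitin ligase known for activating RIG-I. It had 8750 and 9049 normalized counts in WT and 11592 and 11950 in KO-labelled libraries. The groups did not overlap, and the mean rose from 8900 ± 212 (SD, n = 2) to 11771 ± 253 (n = 2). The log2 fold change was 0.40 ± 0.07, with an interval of 0.27 to 0.54 and an adjusted p of 6.72e-08. Chromosome 11 genes had a median of 0.16, and the value with chromosome medians removed was 0.24, the lowest over all settings tried.

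*Mavs* (ENSMUSG00000037523.7, chromosome 2, 131059799 to 131073761, plus strand), the adaptor on mitochondria, had 1983 and 1993 normalized counts in WT and 2497 and 2425 in KO-labelled libraries. The groups were apart, with means of 1988 ± 6.67 (SD, n = 2) and 2461 ± 51.0 (n = 2), a log2 fold change of 0.31 ± 0.09, an interval of 0.13 to 0.49 and an adjusted p of 0.00404. The call was lost with chromosome medians removed (log2 fold change 0.20, adjusted p = 0.094) and whichever 1 library was left out (adjusted p from 0.0707 to 0.116). *Tmem173* (ENSMUSG00000024349.8, chromosome 18, 35893332 to 35900208, minus strand) encodes STING, the adaptor of the cGAS DNA relay. It had 82.2 and 92.6 normalized counts in WT and 91.4 and 91.6 in KO-labelled libraries. Both KO-labelled values lay within the WT range, and the log2 fold change was 0.06 ± 0.36 (adjusted p = 0.925). Its interval of -0.63 to 0.76 spans 0.64-fold to 1.70-fold, so changes of the size seen in *Ddx58* were not detectable for this adaptor.

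**Figure D1:**
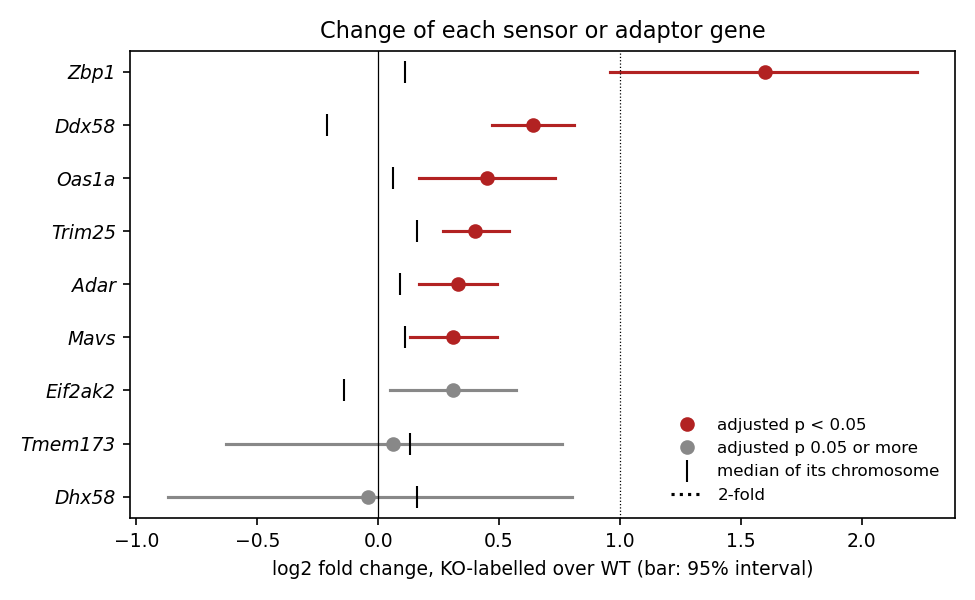
Log2 fold change (KO-labelled over WT, DESeq2) of the 9 sensors and adaptors with an adjusted p, with 95% intervals, and the median of genes on the same chromosome beside each. *Zbp1* stands highest at 1.60, and the intervals of *Dhx58* (-0.87 to 0.80) and *Tmem173* (-0.63 to 0.76) cover 0.

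Among the genes that act on RNA or translation directly, the Z-form sensor changed most. *Zbp1* (ENSMUSG00000027514.8, chromosome 2, 173032113 to 173044424, minus strand) encodes a sensor of Z-form nucleic acid that can recruit the necroptosis kinase RIPK3. It had 50 and 50 raw counts in WT and 202 and 240 in KO-labelled libraries, and 66.3 and 54.4 against 176 and 188 normalized counts. The means of 60.4 ± 8.37 (SD, n = 2) and 182 ± 8.43 (n = 2) differed 3.01-fold. The log2 fold change was 1.60 ± 0.32, with an interval of 0.96 to 2.23, and the adjusted p was 8.57e-06. Its fold is the highest among the 9 genes, and its mean level per kb in WT is the lowest of them, overlapping that of *Dhx58*. Whichever 1 library was left out, its log2 fold change stayed between 1.46 and 1.74 and its adjusted p was between 0.00111 and 0.0176, so the call at 0.001 was lost.

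*Adar* (ENSMUSG00000027951.10, chromosome 3, 89518944 to 89557368, plus strand) encodes ADAR1, which deaminates adenosines in double-stranded RNA. It had 2998 and 2975 normalized counts in WT and 3803 and 3690 in KO-labelled libraries, again without overlap. Means were 2986 ± 15.9 (SD, n = 2) and 3747 ± 80.4 (n = 2), and the log2 fold change was 0.33 ± 0.08 (interval 0.17 to 0.49, adjusted p = 0.000477). With chromosome medians removed the log2 fold change was 0.23 (DESeq2 adjusted p = 0.0203). With 1 library left out it ran from 0.31 to 0.35. Of the genes that then kept their call, *Adar* came closest to losing it. Gene-level counts do not separate the interferon-induced long isoform from the constitutive short one. *Eif2ak2* (ENSMUSG00000024079.4, chromosome 17, 79251904 to 79281913, minus strand) encodes PKR, the kinase that halts translation on binding double-stranded RNA. It had 741 and 790 normalized counts in WT and 999 and 904 in KO-labelled libraries, with no overlap. Its log2 fold change was 0.31 ± 0.13 (interval 0.05 to 0.57) and its adjusted p was 0.056 with DESeq2 and 0.0263 with edgeR.

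*Oas1a* (ENSMUSG00000052776.9, chromosome 5, 121346265 to 121357536, minus strand) is one of a cluster of oligoadenylate synthetase genes. It had 570 and 534 normalized counts in WT and 771 and 736 in KO-labelled libraries. The groups were apart, with means of 552 ± 25.8 (SD, n = 2) and 753 ± 24.2 (n = 2), a log2 fold change of 0.45 ± 0.14, an interval of 0.17 to 0.73 and an adjusted p of 0.00817. The call was lost whichever 1 library was left out (adjusted p from 0.0653 to 0.171). Stretches matching a copy elsewhere in the genome covered 92.4% of its exonic bases, with *Oas1g* the gene holding the most aligned bases, so how reads were shared between these genes is uncertain. With the counts of both genes summed, a choice made after seeing the data, values were 724 and 720 in WT and 1068 and 1097 in KO-labelled libraries (log2 fold change 0.58 ± 0.13, adjusted p = 3.09e-05). For the other 9 genes copies covered at most 6.25% of exonic bases. A gene on the opposite strand shared 4.08% of exonic bases with *Dhx58* and 3.4% with *Eif2ak2*.

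Per kb of exonic length, the normalized counts of the 10 genes spanned a wide range. In WT the order was *Trim25* (mean 1546 per kb), *Mavs* (594), *Ddx58* (482), *Adar* (440), *Oas1a* (276), *Eif2ak2* (150), *Tmem173* (38.0), *Dhx58* (19.4), *Zbp1* (17.1) and *Ifih1* (0.395). Only the neighbours *Dhx58* and *Zbp1* overlapped between libraries in that order. In KO-labelled libraries *Ddx58* (753) stood level with *Mavs* (736), their libraries overlapping, and *Zbp1* (51.5) stood above *Tmem173* (39.7) and *Dhx58* (18.8). Among protein-coding genes tested, *Trim25* sat at percentile 87.0 in WT and 89.6 in KO-labelled libraries, *Adar* at 65.1 and 69.3 and *Zbp1* at 16.9 and 30.3. Of the 9 genes tested, *Eif2ak2*, *Tmem173*, *Dhx58* and *Zbp1* lay below the median of those genes in both groups.

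**Figure D2:**
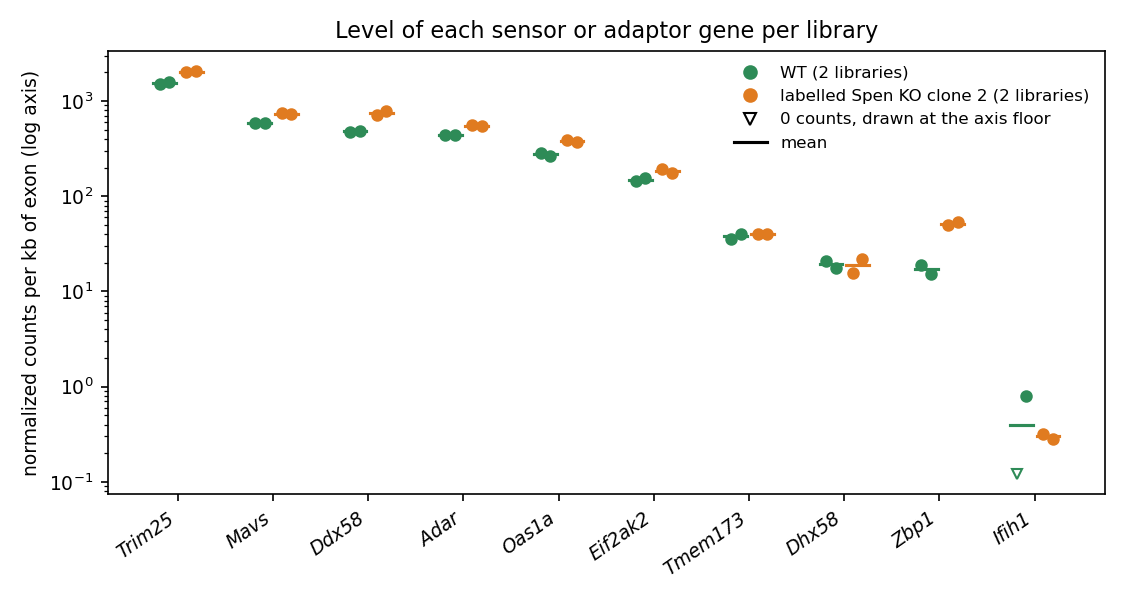
Normalized counts per kb of exonic length (log axis) of the 10 sensors and adaptors in 2 WT libraries and 2 libraries labelled *Spen* KO clone 2, 1 point per library with a bar at the group mean. The means of *Zbp1* are 17.1 and 51.5 per kb, *Dhx58* and *Tmem173* overlap between the groups, and the open triangle is the WT library without a count of *Ifih1*.

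Ratios within a library need no scaling between libraries. The per-kb ratio of *Ddx58* to its adaptor *Mavs* was 0.803 and 0.820 in WT and 0.952 and 1.10 in KO-labelled libraries. The ratio of *Trim25* to *Ddx58* was 3.19 and 3.22 in WT and 2.83 and 2.61 in KO-labelled libraries. Both ratios were apart between the groups, each shifting towards *Ddx58*. *Zbp1* to *Adar*, which both bind Z-form RNA, was 0.0425 and 0.0352 in WT and 0.0889 and 0.0979 in KO-labelled libraries. *Adar* to *Eif2ak2* was 3.05 and 2.84 in WT and 2.87 and 3.08 in KO-labelled libraries, so the groups overlapped.

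Beyond these 10 genes, 167 genes of the same pathways were listed, and 125 of them had an adjusted p. Of the 125, 30 were higher (24%) and 15 lower (12%), beside 16.4% and 15.8% of all genes, with a median log2 fold change of 0.08. With 1 library left out in turn these counts fell to between 14 and 21 higher and between 6 and 11 lower. With chromosome medians removed 22 pathway genes were higher and 15 lower. The share of all genes was not counted under these other settings. Among the other cytosolic sensors 5 of 14 tested were higher (35.7%) and 1 was lower (7.14%). The cGAS gene, *E330016A19Rik* in this annotation, was higher (0.66, adjusted p = 0.00524), as was the helicase *Dhx36* (0.36, 7.85e-05), and the helicase *Ddx21* was lower (-0.25, 0.00431), on chromosome 10, where the median gene stood at -0.35. Among the other oligoadenylate synthetases, 3 of 8 tested were higher (37.5%) and none was lower, also at an unadjusted p under 0.05. They were *Oas1g* (0.95, 0.000348), *Oas3* (0.95, 0.0446) and *Oas2* (0.75, 0.0194).

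**Figure D3:**
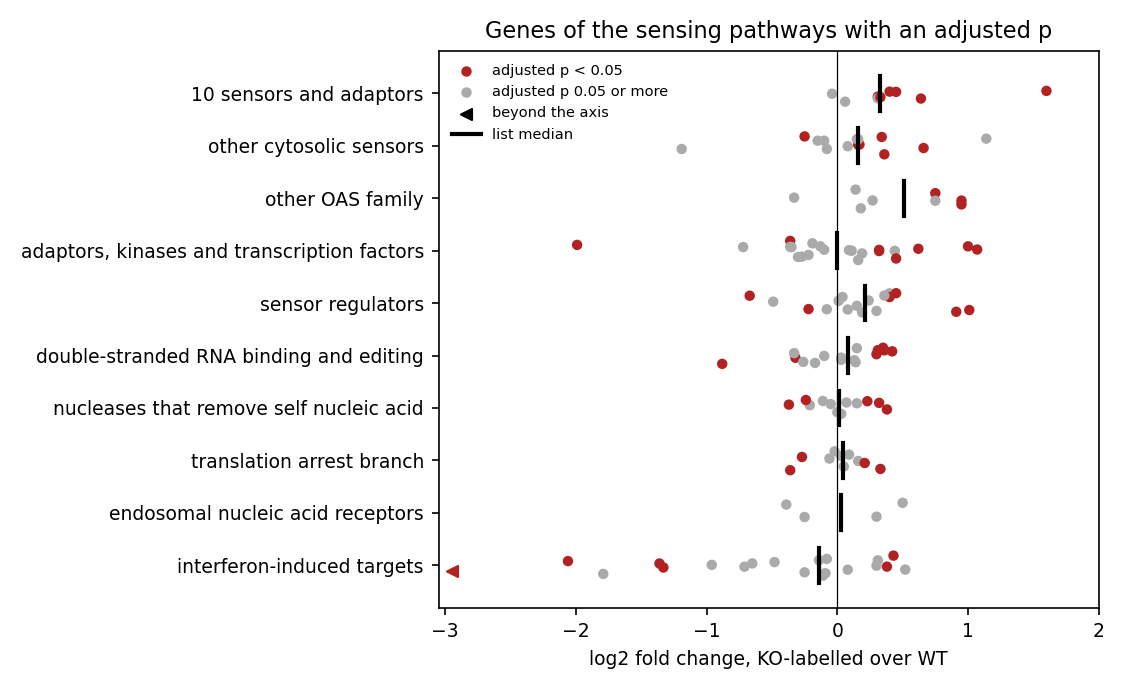
Log2 fold changes (KO-labelled over WT, DESeq2) of the tested genes in each pathway list, 1 point per gene, red where the adjusted p is under 0.05, with a bar at the list median and a triangle for a gene beyond the axis. Of the 10 sensors and adaptors, 9 were tested, with 6 higher (66.7%) and 0 lower. Of 21 interferon-induced targets tested, 2 were higher (9.52%) and 4 lower (19%). Of all genes tested, 16.4% were higher and 15.8% lower.

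Downstream of the adaptors, 6 of 22 kinases, scaffold proteins and transcription factors were higher (27.3%) and 2 lower (9.09%), beside 16.4% and 15.8% of all genes, with a median of -0.01. *Irf5*, an interferon regulatory factor, was higher (1.07, adjusted p = 0.000598) although 14.2% of its exonic bases lie opposite *Tnpo3*, and so was the TBK1-binding scaffold *Tbkbp1* (1.00, 0.00348). The AP-1 subunit *Jun* was lower (-1.99, 4.72e-18), as was the ligase *Traf3* (-0.36, 0.00144), on chromosome 12, where the median gene stood at -0.32. The central pair *Tbk1* and *Irf3* did not pass, at -0.22 (0.103, also on chromosome 10) and 0.09 (0.624), and neither did *Irf7* at -0.30 (0.682).

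Of 18 regulators of the sensors tested, 4 were higher (22.2%) and 2 lower (11.1%), near the 16.4% and 15.8% of all genes. *Nlrx1*, a mitochondrial protein known to restrain MAVS, rose by 1.01 (adjusted p = 4.14e-08) and *Dak*, known to restrain MDA5, by 0.91 (3.12e-16). *Dak* lies on chromosome 19, where the median gene stood at 0.38, and shares 14.3% of exonic bases with *Cybasc3* on the opposite strand. The ligase *Trim32* was lower (-0.67, 8.25e-05), as was the mitochondrial import receptor *Tomm70a* (-0.22, 0.00581), which is close to the median of -0.23 on its chromosome, 16.

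Among 16 double-stranded RNA binding and editing genes, 5 were higher (31.2%) and 2 lower (12.5%), again beside 16.4% and 15.8% of all genes. *Prkra*, the PKR activator PACT, had 434 and 476 normalized counts in WT and 245 and 250 in KO-labelled libraries, a log2 fold change of -0.88 (adjusted p = 2.97e-05). The processing enzyme *Dicer1* was also lower (-0.32, 0.0001), at the median of its chromosome, 12 (-0.32). *Stau1* (0.42, 0.000223) and *Son* (0.36, 8.46e-05) were higher. In the translation arrest branch the shares were close to those of all genes, with 2 of 10 higher (20%), *Nck1* (0.33, 0.0106) and *Ppp1r15b* (0.21, 0.0117), and 2 lower (20%), *Eif2ak4* (-0.36, 0.00166) and *Dnajc3* (-0.27, 0.0124).

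In the list of nucleases and related proteins that remove self nucleic acid, 3 of 12 tested were higher (25%) and 2 lower (16.7%). The shares of all genes were 16.4% and 15.8%. *Xrn1* (0.38, adjusted p = 0.000555) and *Rnaseh2a* (0.32, 0.00028) were among the higher. The 2 that were lower were the helicase *Supv3l1* (-0.24, 0.0174), on chromosome 10 with its median of -0.35, and *Dnase2a* (-0.37, 0.00668). *Dnase2a* shares 30% of exonic bases with *Mast1*. In the list of endosomal receptors and their partner proteins 4 genes were tested. None passed with DESeq2, also at an unadjusted p under 0.05. *Tlr3*, at 0.50 (0.726), was the only endosomal receptor among them, since the others had too few counts for an adjusted p.

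Interferon genes themselves were near absent. Of 18 interferon genes 15 had no count in any library, *Ifnb1* among them, and the others, *Ifna13*, *Ifnk* and *Ifnz*, summed to 3 and 18 raw counts in WT and 11 and 20 in KO-labelled libraries. A count of 0 allows up to 3 counts in a library, so a low level was not detectable. Of 21 interferon-induced targets tested, 2 were higher, *Parp14* (0.43, adjusted p = 0.0237) and *Irf1* (0.38, 0.00266), and 4 were lower, with a median of -0.14. *Cmpk2*, an interferon-induced nucleotide kinase, had 98.1 and 74.1 normalized counts in WT and 20.9 and 20.3 in KO-labelled libraries (-2.06, 0.000152). *Isg15* had 4, 16, 4 and 4 raw counts (adjusted p = 0.319), and *Ifit1* had 7.95, 6.53, 1.74 and 0 normalized counts and no adjusted p. Among the 21 targets the shares higher (9.52%) and lower (19%) stand beside 16.4% and 15.8% of all genes tested.

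**Figure D4:**
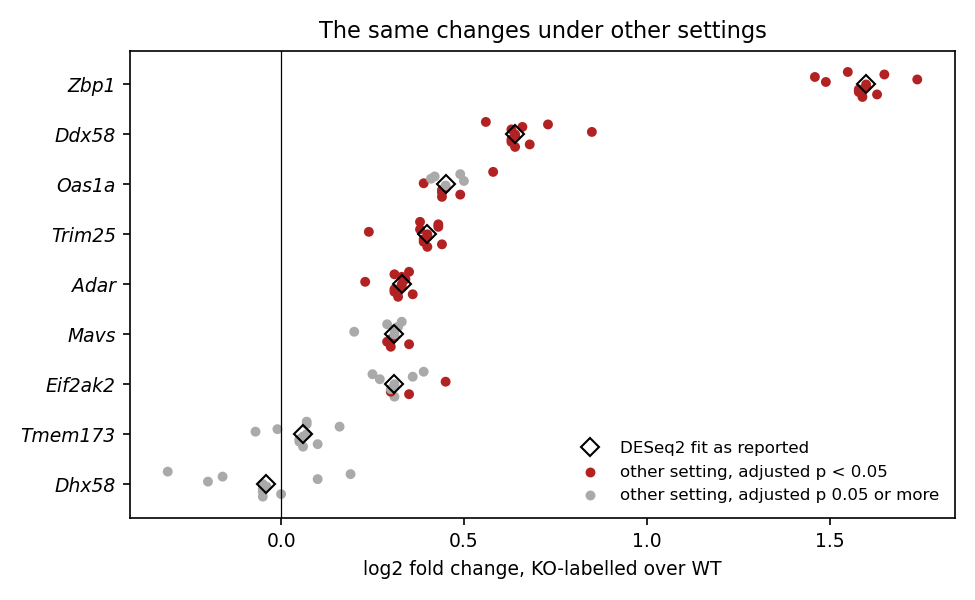
Log2 fold change (KO-labelled over WT) of each sensor or adaptor as reported (diamond) and under each other setting (points, red where the adjusted p is under 0.05). *Zbp1* lies between 1.46 and 1.74, *Ddx58* between 0.56 and 0.85, *Trim25* between 0.24 and 0.44 and *Adar* between 0.23 and 0.36.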

How the data were processed

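The authors sequenced stranded, ribosomal RNA-depleted libraries with paired reads, mapped them to mm9 with STAR and counted GENCODE vM1 genes with featureCounts. The deposited values are raw counts per gene. Versions, the strand setting and what was done with multi-mapping reads are not given in the sources used here. All 37310 gene identifiers matched the annotation, and 11918 genes had no count.

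Counts of all genes were fitted in R 4.3.3 by DESeq2 1.42.0, with group as the only term, its default scaling and filtering, Wald tests and Benjamini-Hochberg adjusted p-values. Calls used an adjusted p under 0.05. Positive log2 fold changes are higher in KO-labelled libraries. The alternatives were edgeR 4.0.16, other size factors, low-count filters, a replicate block, removed chromosome medians, other thresholds and leaving out each library. Copies were exonic stretches of at least 75 bases at 95% identity elsewhere in the genome (blastn 2.17.0). Coordinates are 1-based, mm9 for genes.

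The 10 genes and the pathway lists were chosen with earlier results of these data known. Named from each list were up to 2 genes per direction with the largest called change and a mean normalized count of at least 50, plus *Ifnb1*, *Isg15*, *Ifit1*, *Irf3*, *Irf7*, *Tbk1*, the cGAS gene, *Tlr3* and *Prkra*. Some genes that this rule names are not reported here. *Oas2*, *Ifna13*, *Ifnk*, *Ifnz* and the genes under other observations were named after their values were seen. The labels do not say that replicates came from separate cultures, so p-values measure the spread between these libraries, which may be technical. Intervals come from the fit, and the limit set by a count of 0 covers counting error only.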

Additional observations from a re-analysis of the deposited data

How the results depend on the processing

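The count of 6 sensors and adaptors higher was 7 with upper-quartile size factors, with edgeR and at an adjusted p under 0.1, and 4 at an adjusted p under 0.001 and whichever 1 library was left out. None was lower in any setting. *Ddx58*, *Adar*, *Trim25* and *Zbp1* passed in 11 of 11 settings. *Eif2ak2* passed with upper-quartile size factors (adjusted p = 0.0263), edgeR (0.0263) and chromosome medians removed (0.00418). Without 1 library, the count of sensors at 2-fold and an adjusted p under 0.001 was 0 to 0 in place of 1, pathway genes higher ran from 14 to 21 in place of 30 and pathway genes lower from 6 to 11 in place of 15. The median of the sensors was 0.24 with chromosome medians removed and 0.31 to 0.38 without 1 library. Leaving out a library leaves 1 in its group, which is assumed to vary like the others. With chromosome medians removed 22 pathway genes were higher and 15 lower. The share of all genes was not counted under the other settings, so these counts have no background beside them. No sensor that passed in the reported fit changed direction in another setting. *Dhx58* and *Tmem173*, which passed in no setting, changed sign. Without 1 library *Dhx58* ran from -0.31 to 0.19 and *Tmem173* from -0.01 to 0.16, and with chromosome medians removed *Tmem173* was -0.07. No fold is given for *Ifih1*.

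With the replicate number as a block, 4 sensors and 20 pathway genes were higher and 9 pathway genes lower. *Mavs* (DESeq2 adjusted p = 0.0589) and *Oas1a* (0.0622) were lost. Deviations of same-numbered libraries correlated at -0.0177 over 13306 genes, so the numbers were not taken to pair the libraries. Other scalings put the median over genes averaging 50 or more normalized counts at no more than 0.063, against 0.026 in the reported fit. Depth limits *Ifih1*, *Dhx58*, *Tmem173* and the interferon genes.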

Other observations

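The partners of ZBP1 in necroptosis and the kinases upstream of NF-kB were not described above. *Ripk3*, the kinase that ZBP1 recruits, had 785 and 861 normalized counts in WT and 1228 and 1306 in KO-labelled libraries (log2 fold change 0.62 ± 0.12, DESeq2 adjusted p = 4.97e-06). *Mlkl*, which RIPK3 activates to open the membrane, had 29.2 and 26.1 against 14.8 and 18.8 (adjusted p = 0.5). *Casp8*, which restrains the necroptosis kinases, had 55.7 and 74.1 against 47.0 and 54.8 (adjusted p = 0.616). The necroptosis kinase *Ripk1* did not pass either (0.19, adjusted p = 0.36). Of the IκB kinases, *Chuk* was higher, with 4501 and 4429 in WT and 6257 and 5961 in KO-labelled libraries (0.45, adjusted p = 4.67e-08, on chromosome 19 with a median of 0.38), and so was *Ikbkb* (0.32, adjusted p = 0.0106). Their partner subunit *Ikbkg* (0.11, adjusted p = 0.484) and the related kinase *Ikbke* (0.44, adjusted p = 0.426) did not pass.

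Besides *Cmpk2*, interferon-induced genes that were lower included *Gbp2*, a guanylate-binding GTPase with 256 and 264 normalized counts in WT and 90.6 and 116 in KO-labelled libraries (-1.33, adjusted p = 5.18e-06), and *Isg20*, an exonuclease with 13 and 12 raw counts in WT and 0 and 0 in KO-labelled libraries (adjusted p = 0.00205).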
